A study of Mus musculus with 12 samples.

Results

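The 6 wild-type libraries among the 12 RNA-seq libraries of a mouse endometrial organoid series were described on their own, by how many reads each gene took. They were taken by their labels: 3 were labelled wild type without estrogen (untreated 1, 2 and 3) and 3 wild type with estrogen (treated 1, 2 and 3). The other 6 libraries, from Esr1 knockout organoids, enter no level given here and serve only in an alternative fit for estrogen, and no genotypes were compared. Organoids are small hollow cultures of epithelium, grown here from trypsin-digested mouse uteri in drops of Cultrex, a basement membrane extract, in an expansion medium, and used at passage 3. The labels give neither the estrogen's dose or duration nor the donors' age for each sample, and whether replicate libraries stem from different animals or culture wells is not stated. The submitters' treatment note says that organoids of both genotypes failed to respond to the hormone.

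The endometrial epithelium lines the uterine cavity and dips into the wall as glands, and both compartments derive from the embryonic Müllerian duct. Its cells secrete proteins into the lumen and move salt and water across the epithelium. In the uterus estrogen acts through the nuclear receptor encoded by Esr1, in the epithelium and in the stroma beneath it, and the stroma relays much of the signal. An organoid culture holds the epithelium without that stroma.

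Levels are counts per 1e+06 counted reads of a library (CPM). Because a long transcript yields more reads than a short one, levels of different genes are compared only after division by exon length and rescaling to 1e+06 (TPM), for the 24964 genes with a length, which held 98.9% of the reads. Errors are SD over the 6 libraries, untreated and treated together, unless a group is named. The libraries held 84336449 to 106297315 counted reads. Of 26264 listed genes, 7288 had no read in any of the 6 libraries. With reads taken as independent, this allows a level of up to 0.00525 CPM (3 reads over the 6 libraries, for counting error only). Each mate of a read pair was counted, so reads are not independent and the true limit is higher. At least 1 CPM was reached in all 6 libraries by 11498 genes (43.8%), at least 10 CPM by 8445 and at least 100 CPM by 1827. The table lists no mitochondrially encoded gene. The 5 marker genes Pax8, Esr1, Gpx3, C3 and Aqp8 were each above 100 CPM in every library.

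The promoters of 4 genes are shown because these genes are among the first 20 by reads. In addition, C3, Ltf and Sprr2f belong to the list of known estrogen-responsive uterine genes. Each promoter is the run of 200 bases that ends at the base before the RefSeq start, on the gene's strand. The runs come from the RefSeq table of build GRCm38.p6, whereas the submitters' processing notes name GRCm39 for the counts. Capitals mark GGTCA or its reverse complement TGACC, the core letters of an estrogen receptor binding site, and TATAAA, the TATA box letters.
Prap1, chr7:140093196-140093395, plus strand: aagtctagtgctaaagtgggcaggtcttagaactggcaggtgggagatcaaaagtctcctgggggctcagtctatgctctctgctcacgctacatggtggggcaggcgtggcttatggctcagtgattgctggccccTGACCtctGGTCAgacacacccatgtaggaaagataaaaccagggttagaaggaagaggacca
C3, chr17:57228137-57228336, minus strand: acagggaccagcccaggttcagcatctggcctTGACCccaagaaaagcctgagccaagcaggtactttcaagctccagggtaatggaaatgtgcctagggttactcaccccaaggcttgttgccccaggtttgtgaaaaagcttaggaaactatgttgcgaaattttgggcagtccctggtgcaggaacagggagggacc
Ltf, chr9:111019092-111019291, plus strand: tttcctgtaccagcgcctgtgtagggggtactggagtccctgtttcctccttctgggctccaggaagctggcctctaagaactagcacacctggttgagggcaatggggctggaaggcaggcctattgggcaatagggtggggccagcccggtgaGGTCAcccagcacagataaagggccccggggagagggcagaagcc
Sprr2f, chr3:92364987-92365186, plus strand: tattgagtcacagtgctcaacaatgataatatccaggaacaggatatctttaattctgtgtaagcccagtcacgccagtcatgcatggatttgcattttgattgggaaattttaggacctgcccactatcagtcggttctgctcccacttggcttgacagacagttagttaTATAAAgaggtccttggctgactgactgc

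In the Prap1 promoter both orientations of the 5 letters stand 3 bases apart, beginning at positions -63 and -55. Here -1 is the base before the start. TGACC comes first in this stretch, the opposite order to the full palindrome given below. The letters begin at -168 in C3 and at -45 in Ltf, and the TATAAA of Sprr2f begins at -29. Sprr2f also has a GGTCA match within 250 bases upstream, but it begins before the stretch shown. Such short letters are common. Over 250 bases upstream and on both strands, GGTCA was found in 11 of the 26 leading genes (of the 30 with the most reads) that matched a RefSeq promoter, 42.3%, against 37.3% of 9310 genes at 1 CPM or more in all 6 libraries and 38.4% of all 27025 genes of the table. TATAAA was found in 4 of the 26 (15.4%), in 7.28% of the 9310 genes and in 14.3% of the table. The full palindrome, GGTCA followed by any 3 bases and then TGACC, which also counts as a GGTCA match, was found in 18 promoters of the table (0.0666%) and in none of the 26. These are matches of letters and were not tested as binding sites.

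The 10 genes with the most reads encode secreted proteins, a lysosomal protease, a surface protein of clotting, a translation factor, a growth-related protein and protein-modifying enzymes. The leading gene, Prap1, a proline-rich acidic secreted protein, was at 26906, 14766 and 28011 CPM in untreated libraries 1, 2 and 3 and at 16435, 23368 and 12931 CPM in treated libraries 1, 2 and 3. The groups overlapped, and untreated 1 and 3 and treated 2 were the high libraries. In TPM, Prap1 was also first, at 77234, with a wider lead than in CPM because its exons span few bases.

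C3, the central complement component, was at 16987, 20978 and 14113 CPM in the untreated libraries and at 16024, 21969.5 and 26791 CPM in the treated. Here the low library was untreated 3 and the high one treated 3, the reverse of Prap1. In TPM, C3 held rank 6, at 8936.

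Spp1, which encodes osteopontin, a secreted adhesion protein of the uterine lumen, was at 8851, 8357 and 10384 CPM without estrogen and at 8927, 9348 and 6576 CPM with it. Its levels stayed within 1.58-fold. Gpx3, the extracellular glutathione peroxidase, was at 5511, 10511 and 3825 CPM in the untreated libraries and at 8486, 5921 and 10746 CPM in the treated. Both groups spanned most of its 2.81-fold range.

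Ltf, lactoferrin, an iron-binding defence protein, was at 3552, 1092 and 4043 CPM without estrogen and at 1575, 7417 and 3338 CPM with it. Its 6.79-fold range was wide in both groups. Lcn2, lipocalin 2, which binds bacterial iron carriers, kept to a 1.50-fold range, at 3046, 2535 and 3668 CPM in the untreated libraries and at 3223, 3801 and 3594 CPM in the treated.

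The remainder of the first 10 by CPM were Eef1a1, a translation elongation factor (9882 ± 673 CPM), Ctsb, the lysosomal protease cathepsin B (8145 ± 1500.3), F3, the membrane-bound tissue factor that starts clotting (5153 ± 566), Tgm2, a protein-crosslinking transglutaminase (4099 ± 912), Tpt1, a growth-related cytosolic protein (3603 ± 360.0), and P4hb, a protein disulfide isomerase of the endoplasmic reticulum (3590.2 ± 435). In TPM the order of the first 7 was Prap1, Eef1a1 (12951), Spp1 (12462), Gpx3 (11104), Sprr2f (9224), C3 (8936) and Lcn2 (8498). Sprr2f, a small proline-rich protein of the uterine epithelium, held only rank 20 in CPM, at 2391 ± 481.

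**Figure D1:**
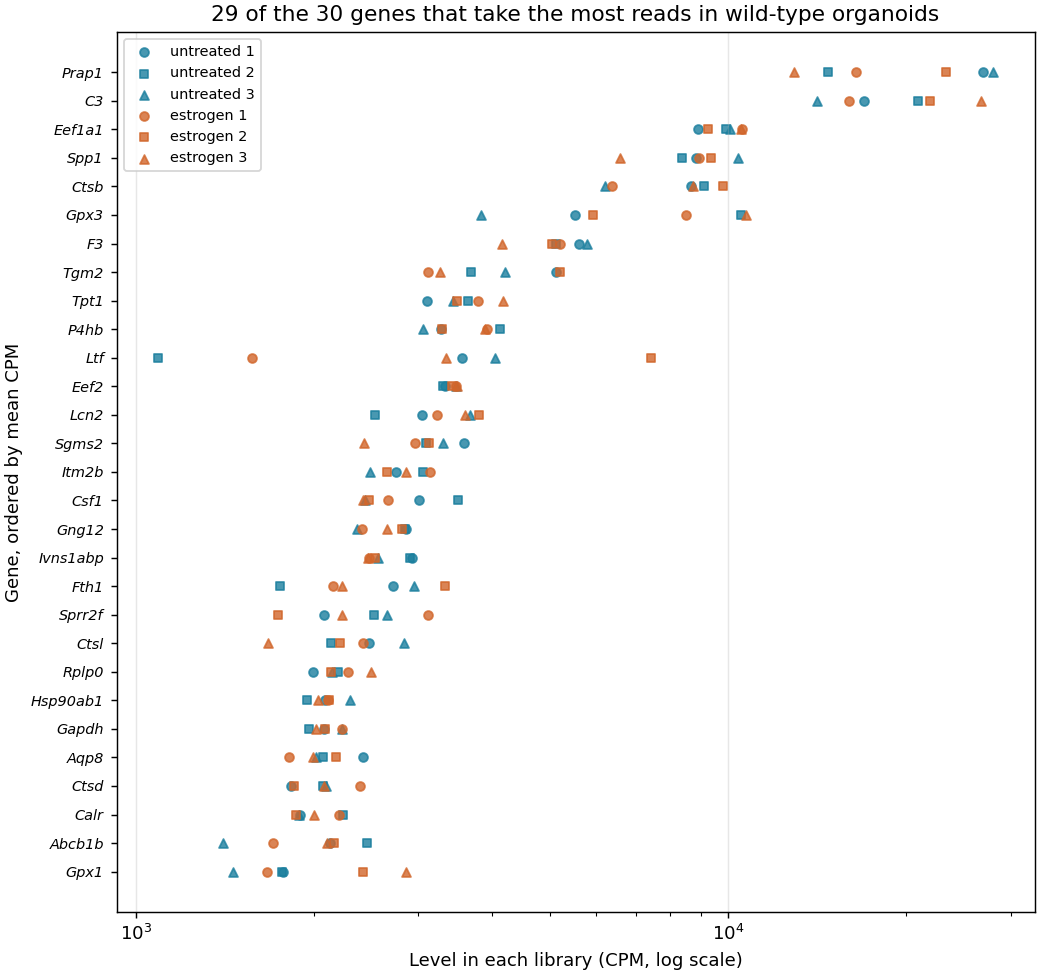
Level of 29 of the 30 genes with the most reads in each of the 6 wild-type libraries (CPM, log axis), untreated in blue and treated in orange, with the shape giving the replicate number. Most genes sit within a narrow band in all 6 libraries, while Ltf spreads from 1092 to 7417 CPM.

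The reads were spread over many genes. Prap1 alone took 2.04% ± 0.652 of the reads, the first 10 genes 9.06% ± 0.463, the first 100 genes 23.6% ± 0.531 and the first 1000 genes 56.9% ± 0.256. Ranked by mean level, 680 genes held 50% of the reads and 5051 genes held 90%. Per transcript length the profile was more concentrated, with 15.8% ± 1.81 of the TPM in the first 10 genes and 35.9% ± 1.34 in the first 100. The 85 ribosomal protein genes found by symbol took 5.09 to 6.13% of the reads.

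Of 148 genes on the lists of secreted products, 77 (52.0%) were at 1 CPM or more in all 6 libraries, and together the 148 took 5.89 to 7.03% of the reads. The lists' median level was 2.93 CPM, beside 0.354 CPM over all listed genes of the table. The lists were drawn up with earlier results of these data known, so the comparison is a description. They also hold proteins that stay in the cell, such as Sprr2f and S100g, so the share is not of secreted products alone.

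Among 24 defence and complement genes, 16 reached 1 CPM and 10 reached 100 CPM in every library. Complement was represented by C3 and by Cfb, the protease of the alternative pathway. Cfb was at 866, 473 and 1050.2 CPM without estrogen and at 521, 1318 and 952 CPM with it, with a low library in each group. Wfdc2, a protease inhibitor of reproductive epithelia, was steadier, at 863 ± 129 CPM. Clu, which encodes clusterin, was at 692, 474 and 566 CPM untreated and at 415, 1226 and 881 CPM treated. Pigr, which carries polymeric immunoglobulin to the lumen, was at 546, 281 and 412 CPM untreated and at 173, 684 and 315 CPM treated. Untreated 2 and treated 1 were the lowest of their groups for Ltf, Cfb, Clu and Pigr alike. Reg3g and Bpifa1 had no read in any of the 6 libraries, and Lyz2, lysozyme of phagocytes, was at 0.0968 CPM on average.

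Of 14 mucins and trefoil factors, 5 reached 1 CPM in all 6 libraries. They were led by the membrane-bound mucins Muc20 (433 ± 70.3 CPM, 253 TPM), Muc4 (193 ± 27.3 CPM, 40.2 TPM) and Muc1 (71.4 ± 5.56 CPM, 74.8 TPM). Muc4 and Muc20 overlap in the annotation, and their shared reads were not counted. Of the gel-forming mucins, Muc2 reached 1 CPM in every library, at 1.49 CPM on average, while Muc5b was at 0.611 CPM, Muc5ac at 0.434 CPM and Muc6 at 0.114 CPM on average. The trefoil factors Tff1, Tff2 and Tff3 had no read in any library.

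Of 20 genes on the list of uterine and oviductal secretions, 12 reached 1 CPM in every library. Besides Spp1, Gpx3 and Sprr2f they included Csf1, a macrophage growth factor, at 3014, 3499 and 2441 CPM untreated and at 2671, 2476 and 2425 CPM treated. S100g, a calcium-binding protein of the uterine epithelium, was at 241 ± 88.8 CPM, and the kallikrein Klk1 at 151 ± 29.8 CPM. Ovgp1, the oviductal glycoprotein, was at 10.5 ± 2.93 CPM. Prss28 and Prss29, proteases secreted by uterine glands around implantation, had no read in the 6 libraries, and Cxcl15, a gland chemokine, was at 0.0487 ± 0.0256 CPM.

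Among 39 growth factors and morphogens, 20 reached 1 CPM. The most reads went to Tgfb2 (1172 ± 274 CPM), a transforming growth factor beta, followed by Vegfa (606 ± 143 CPM), the endothelial growth factor, and Inhbb (302 ± 57.8 CPM), the beta B subunit of activin and inhibin. Among Wnt ligands, Wnt5a was at 72.4 CPM and Wnt7b at 49.4 ± 7.02 CPM. Wnt7a, a ligand of the uterine lumen, was at 7.20, 3.88 and 21 CPM untreated and at 13.6, 1.74 and 1.14 CPM treated, an uneven spread in both groups. Lif, a cytokine needed for implantation, was at 33.9 ± 3.83 CPM. Areg, Ihh, Igf1 and Wnt11, which serve estrogen or progesterone signalling in the uterus, were each below 0.2 CPM on average.

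Of 36 matrix and basement membrane genes, 21 reached 1 CPM in all 6 libraries and 11 were under 1 CPM in all 6. Members with many reads were Lama5 at 717 ± 83.5 CPM (148 TPM), Lamb3 at 579.6 ± 109.9 CPM (266 TPM) and Lama3 at 387 ± 137 CPM (84.5 TPM). These encode laminins, which anchor epithelia to their base, while another laminin gene, Lama1, was at 1.65 CPM. The type IV collagen genes Col4a1 (0.385 ± 0.191 CPM, 0.137 TPM) and Col4a2 (0.476 ± 0.192 CPM, 0.173 TPM) and the linker gene Nid1 (0.482 ± 0.100 CPM, 0.186 TPM), which complete a basement membrane, were under 1 CPM in all 6 libraries, and a further type IV collagen gene, Col4a5, was at 14.9 CPM. Fn1, fibronectin, was at 493, 199 and 706 CPM untreated and at 535, 363 and 103 CPM treated, and neither group stood apart. Of 15 plasma carriers, 3 reached 1 CPM. They were Cp, ceruloplasmin (327 ± 176 CPM), Hp, haptoglobin (190.2 ± 136 CPM), and Apoe (1.30 ± 0.202 CPM).

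Of 134 genes on the transport lists, 87 (64.9%) were at 1 CPM or more in all 6 libraries, with a median of 11.1 CPM. The water channel Aqp8, one of the markers, was at 2416, 2075 and 2016 CPM without estrogen and at 1814, 2183 and 1995 CPM with it, a 1.33-fold range. Per length it stood at rank 19 of all genes, at 3290.4 TPM. Aqp5, the other abundant aquaporin, was at 171, 126 and 104 CPM untreated and at 75.2, 253 and 227 CPM treated (209 TPM on average). None of the other 9 aquaporins on the list exceeded 2.55 CPM on average.

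Genes through which an epithelium secretes chloride were well represented. Slc12a2, the sodium-potassium-chloride importer of the basal side, was at 594 ± 57.4 CPM, and Cftr, the chloride channel of the luminal side, at 122 ± 14.8 CPM. Car2, a carbonic anhydrase that supplies bicarbonate, was at 398 ± 94.4 CPM. In TPM their order was Car2 (524), Slc12a2 (214) and Cftr (38.2). Of the 24 chloride and bicarbonate genes, 20 reached 1 CPM in every library.

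Of the 26 genes of sodium, potassium and proton transport, 16 reached 1 CPM in all 6 libraries. Kcnk1, a potassium leak channel, was among the steadiest genes, at 666, 649.6 and 662 CPM untreated and at 667, 675 and 652 CPM treated. The subunits of the epithelial sodium channel were uneven per length, with Scnn1b at 215 TPM and Scnn1a, the pore-forming alpha subunit, at 1.89 TPM. In CPM these were 227 ± 35.3 and 3.33 ± 0.801.

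Nutrient carriers included the glucose transporter Slc2a1 (661 ± 100.5 CPM), the lactate carrier Slc16a1 (418 ± 24.8 CPM), the organic anion carrier Slco4a1 (541 ± 67.9 CPM) and the glutamine carrier Slc1a5 (390.0 ± 78.0 CPM). The kidney carrier Slc22a6 had no read in any library. Metal and lipid carriers included Abcb1b, a drug efflux pump (1995 ± 377 CPM), Slc39a8, a zinc and manganese importer (828 ± 70.6 CPM), Abcc3, an organic anion exporter (649 ± 54.1 CPM), and Trpv6, a calcium entry channel (315 to 639 CPM). Of these 32 genes, 24 reached 1 CPM in all 6 libraries.

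Among 135 listed transcription factors, 63 (46.7%) reached 1 CPM in every library, close to the 43.8% of all listed genes, and 26 had no read. Esr1 took the most reads, at 296, 328 and 237 CPM untreated and at 263, 304 and 321 CPM treated, with overlapping groups. Pax8, a paired-box factor of the Müllerian epithelium, kidney and thyroid, was at 219.7, 209 and 232 CPM untreated and at 227, 210.0 and 198 CPM treated. Its 1.17-fold range was the narrowest of the 5 markers. In TPM Esr1 (88.5) stood below Elf3 (243), Pax8 (198), Nr1h2 (122), Hoxb6 (114) and Klf4 (101), since the Esr1 transcript is long.

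The factors of the Müllerian and nephric ducts were present as a partial set, 6 of 16. Pax2, a paired-box factor of the ducts, was at 89.8 ± 17.4 CPM, Emx2 at 60.6 ± 7.22 CPM and Sall1 at 56.4 ± 6.63 CPM. Sox17, a factor of the uterine epithelium, was at 16.8, 14.5 and 39.6 CPM untreated and at 28.5, 16.4 and 15.4 CPM treated, so untreated 3 and treated 1 lay above the other 4 libraries. Wt1, Osr1, Tcf21 and Hnf4a had no read, and Lhx1, needed to form the ducts in the embryo, was at 0.00642 CPM. Reads of Pax8 and Emx2 may be incomplete or mixed, since each overlaps another counted gene in the annotation.

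General epithelial factors included Elf3 (217 ± 33.9 CPM), Ehf (156 ± 26.1 CPM), Tfcp2l1 (132 ± 31.3 CPM) and Grhl2 (119.9 ± 8.53 CPM), a keeper of epithelial junction genes. Of 38 such factors 25 reached 1 CPM. Foxa2, which uterine glands need in order to form and which marks them, was at 0.901, 2.26 and 1.86 CPM untreated and at 3.10, 2.76 and 3.61 CPM treated. The intestinal factor Cdx2 and the lung and thyroid factor Nkx2-1 had no read.

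Of 42 nuclear receptors, 24 reached 1 CPM in all 6 libraries. Pgr, the progesterone receptor and a known target of Esr1, was at 45.0, 91.6 and 88.7 CPM untreated and at 141, 73.0 and 128 CPM treated, and the groups overlapped. Nr3c1, the glucocorticoid receptor, was at 74.0 ± 5.87 CPM. Esr2, the second estrogen receptor, had reads only in treated 1, at 0.0193 CPM.

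**Figure D2:**
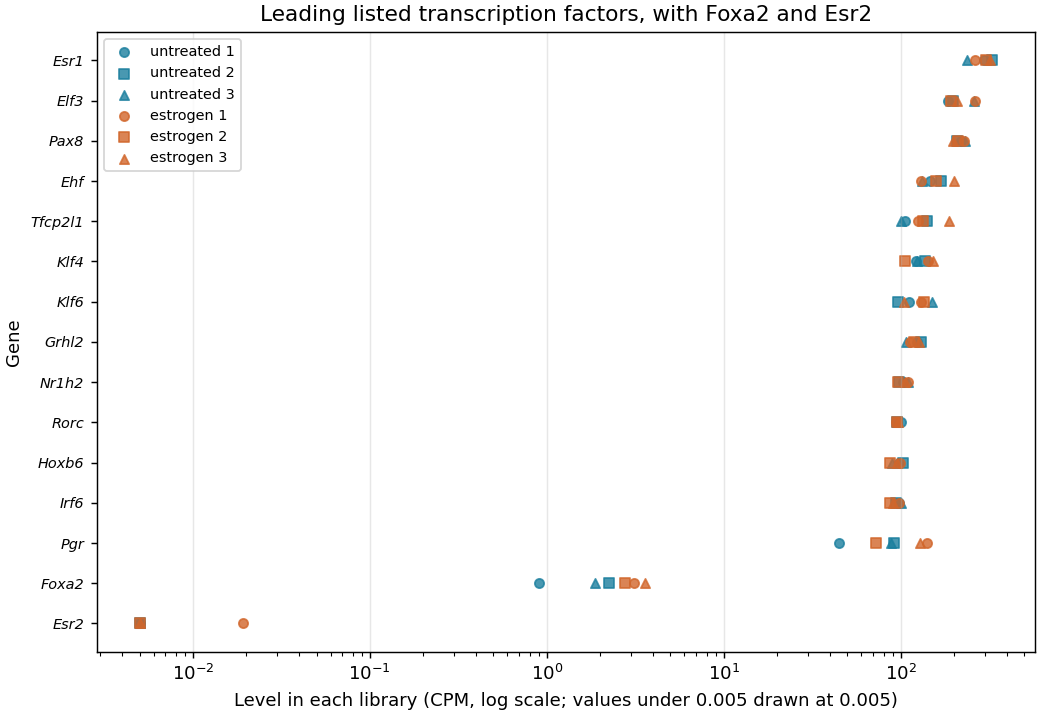
Level of 13 of the listed transcription factors with the most reads, and of Foxa2 and Esr2, in each wild-type library (CPM, log axis, values under 0.005 drawn at 0.005), with treatment as colour and replicate number as shape. The 13 leading factors shown lie between 45.0 CPM (Pgr in untreated 1) and 328 CPM (Esr1 in untreated 2), while Esr2 has reads in 1 library.

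HOX genes, which lie in 4 clusters and record position along the body, reached 1 CPM only in the Hoxb cluster. Of 10 Hoxb genes, 8 reached 1 CPM in all 6 libraries, and the cluster's summed level was 288 to 334 CPM. None of the 11 Hoxa, 9 Hoxc or 9 Hoxd genes did so. Hoxb6 was at 98.0, 103 and 89.5 CPM untreated and at 99.6, 87.1 and 95.8 CPM treated, Hoxb8 at 61.3 ± 7.59 CPM, Hoxb7 at 50.8 ± 3.18 CPM, Hoxb3 at 31.9 ± 3.60 CPM and Hoxb4 at 26.7 ± 1.13 CPM. In TPM the first 3 were Hoxb6 (114), Hoxb7 (92.6) and Hoxb8 (54.8). Hoxb9 was lower, at 11.0 ± 3.27 CPM, Hoxb1 was near 0 and Hoxb13 had no read.

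Hoxa10 and Hoxa11, known for their part in the uterus, were at 0.0106 ± 0.0117 CPM and 0.00627 ± 0.0154 CPM. Their levels in single libraries did not exceed 0.0376 CPM. In the adult uterus both are known mainly from the stroma. The highest member outside the Hoxb cluster was Hoxd8, at 0.285, 0.169 and 0.347 CPM untreated and at 0.0963, 0 and 0.0421 CPM treated.

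**Figure D3:**
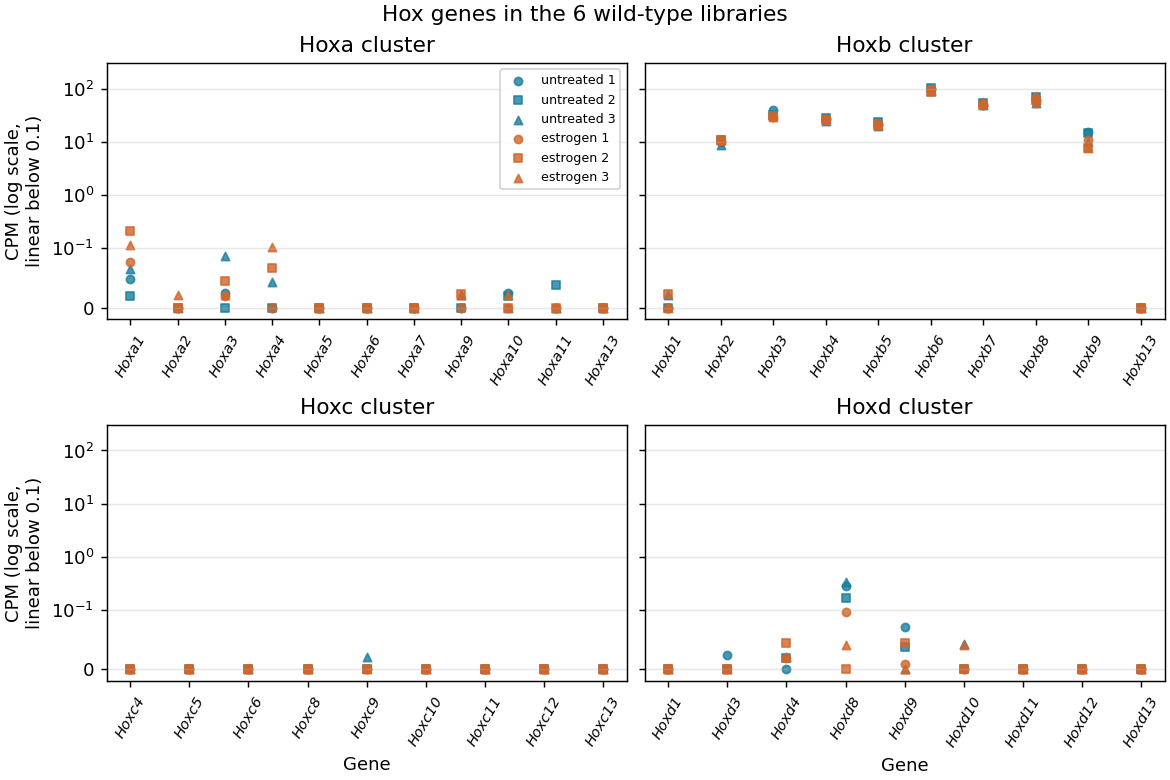
Level of the HOX genes in each wild-type library (CPM, on an axis that is logarithmic above 0.1 and linear below it), in a panel for each cluster, with treatment as colour and replicate number as shape. Hoxb2 to Hoxb9 lie from about 10 to 100 CPM and the genes of the other 3 clusters below 1 CPM.

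The epithelial label was met by the markers. All 17 pan-epithelial markers were above 10 CPM in every library, with a median of 376 CPM and a summed level of 8016 to 9330.2 CPM. Among them the adhesion molecule Epcam was at 1035 ± 77.7 CPM, the keratins Krt7 at 986 ± 87.2 CPM and Krt18 at 904 ± 37.3 CPM, and the protease inhibitor Spint2 at 1363 ± 136 CPM.

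The uterine part of the label was met only in part. Of 14 luminal epithelial markers, 9 reached 1 CPM in all 6 libraries, summing to 3881 to 6037 CPM, mostly from Sprr2f and Ly6a (1761 ± 339.8 CPM). Calb1 (0.0505 ± 0.0732 CPM), Wnt11 (0.0202 ± 0.0254 CPM) and Krt13 (0.0616 ± 0.0424 CPM), which also mark the lumen, were close to 0. Of 15 glandular markers, 5 reached 1 CPM. Those with the most reads were Prom1 (1028 ± 215 CPM) and Sult1d1 (175 ± 65.8 CPM), whereas 5 of the 15, namely Prss28, Prss29, Spink1, Ttr and Wif1, had no read. The libraries are bulk RNA, in which fewer cells of a type and less RNA per cell cannot be told apart.

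Ciliated cells were represented by 4 of 18 markers, none above 10 CPM in every library, with a summed level of 28.0 to 37.3 CPM. Foxj1, the master factor of motile cilia, was at 0.0727 ± 0.0757 CPM, and the highest member was Myb, at 10.5 ± 2.85 CPM. Of 19 basal and squamous markers 6 reached 1 CPM, with a summed level of 27.1 to 48.7 CPM. Krt5 (0.0948 ± 0.0654 CPM) and Krt14 (3 reads in all), the defining basal keratins, were close to 0. Trp63, the basal cell factor p63, was at 2.26 ± 0.692 CPM, and the cornified protein Sbsn was the highest, at 5.77 to 27.7 CPM.

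Cells of the uterine wall left little signal. Of 17 stromal fibroblast markers, 1 reached 1 CPM in all 6 libraries, and their sum was 10.5 to 29.1 CPM (2 of them reached it once treated 1 was left out). That gene was Col6a3, at 25.0, 9.25 and 23.3 CPM untreated and at 9.28, 11.9 and 5.15 CPM treated. The defining stromal genes Col1a1 (0.666 ± 0.159 CPM), Vim (0.200 ± 0.105 CPM) and Pdgfra (1.36 ± 0.373 CPM) were low. Of 11 smooth muscle markers 3 reached 1 CPM, and Smtn, at 112 ± 25.5 CPM, made up most of their sum, while the contractile actin gene Acta2 was at 0.274 ± 0.227 CPM. Of 11 endothelial markers only Flt1 reached 1 CPM in every library, at 10.5 ± 2.19 CPM, and Pecam1 was at 0.0421 ± 0.0366 CPM.

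Genes that usually mark other tissues stood out among the abundant transcripts. Of 15 immune markers 4 reached 1 CPM, and the list summed to 581 to 1048 CPM. Cd14, a receptor for bacterial lipopolysaccharide, was at 334, 352 and 588 CPM untreated and at 602, 455 and 433 CPM treated. Cd68, a lysosomal protein of macrophages, was at 200.2, 342 and 248 CPM untreated and at 418, 186 and 325 CPM treated, and Csf1r, the receptor for Csf1, was at 31.7 ± 11.1 CPM. The pan-leukocyte gene Ptprc was at 5.53 ± 1.43 CPM, and Adgre1 (0.147 ± 0.166 CPM), Itgam (0.211 ± 0.154 CPM) and Cd3e (0.0103 ± 0.0113 CPM), which define macrophages and T cells, were close to 0.

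Of 17 kidney tubule markers 7 reached 1 CPM, summing to 2216 to 3251 CPM. Havcr1, a phosphatidylserine receptor known from injured tubules, was at 1907, 1363 and 1846 CPM untreated and at 1424, 1657 and 869 CPM treated. Kap, an androgen-regulated gene of the kidney, was at 607, 453 and 958 CPM untreated and at 646, 1159 and 997 CPM treated. Cys1, a protein of the primary cilium, was at 265 ± 29.7 CPM. Atp6v0d2, a proton pump subunit, was at 53.5 ± 22.9 CPM, Cdh16, the kidney cadherin, at 49.3 ± 20.1 CPM, and Pkhd1, another protein of the primary cilium, at 45.2 ± 10.2 CPM. The list's other members were lower: Slc34a1, Hnf4a and Slc22a6 of the proximal tubule had no read, and Lrp2, its endocytic receptor, was at 0.0281 ± 0.0313 CPM.

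Among 7 mesothelial markers, Aldh1a2, which makes retinoic acid, was at 1813 ± 282 CPM and Msln at 53.4 ± 25.5 CPM, while Wt1, Lrrn4 and Upk1b had no read. Of 8 thyroid markers, Tshr alone reached 1 CPM in all 6 libraries (60.9 ± 22.1 CPM; 2 markers without untreated 1), and Tg, Nkx2-1 and Foxe1 had no read. Of 18 gut, liver, lung and pancreas markers 1 reached 1 CPM and 11 had no read. The ovary list had 1 of 10 members at 1 CPM, the oviduct secretory list 5 of 10, led by Krt7 and Pax8, and the list of mammary, prostate and epididymal genes 0 of 12, or 1 without untreated 3.

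**Figure D4:**
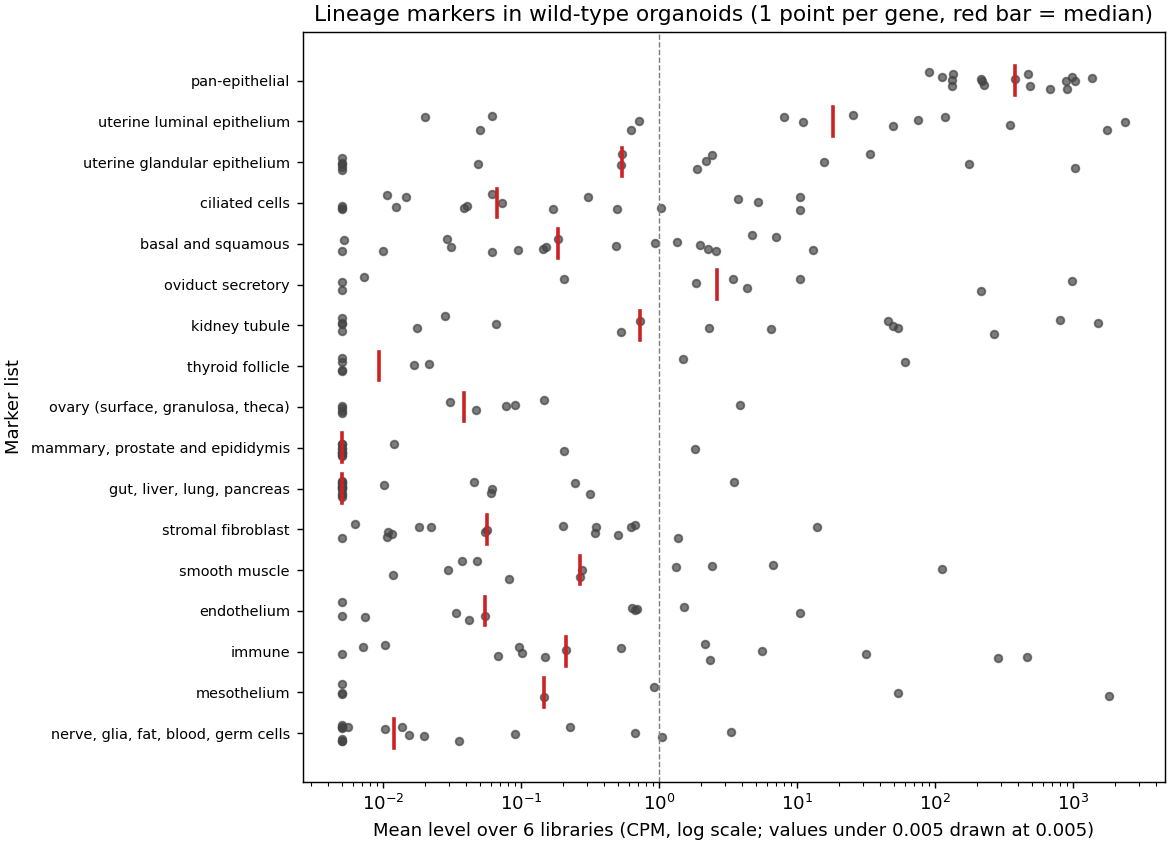
Mean level of each marker over the 6 wild-type libraries (CPM, log axis, values under 0.005 drawn at 0.005), a point per gene and a row per list, with the median of the list as a red bar and 1 CPM as a dashed line. The pan-epithelial median is 376 CPM, and the medians of the ciliated, basal, stromal, muscle, endothelial and immune lists lie under 1 CPM, with single high genes in the immune, kidney and mesothelial rows.

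All 24 proliferation genes had reads in the libraries and 22 reached 1 CPM in every one. Ccnd1, cyclin D1, was at 436 ± 6.31 CPM and Cdkn1a, the cell cycle inhibitor p21, at 293 ± 22.8 CPM, while the proliferation marker Mki67 was at 24.2 ± 7.01 CPM. Per length these were 274, 253 and 5.65 TPM. Among 20 stem cell and Wnt target genes, 13 reached 1 CPM, with Prom1 and Tnfrsf19 (218 ± 37.7 CPM) high, and Lgr5 (0.527 ± 0.275 CPM) and Axin2 (0.540 ± 0.260 CPM) low.

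Of 16 retinoid handling genes 7 reached 1 CPM in all 6 libraries, a share of 43.8% like that of all listed genes. The synthesis and storage genes Aldh1a2, Rdh10 (329 ± 79.8 CPM) and Lrat (366 ± 74.2 CPM) were abundant. Stra6, which takes up retinol, was at 0.0954 CPM and Rarb, a receptor gene that retinoic acid induces, at 0.0919 CPM. Cyp26a1, which retinoic acid also induces, was at 9.12 CPM on average (2.65 to 17.3 CPM). The receptor genes Rara and Rarg were at 34.6 and 32.8 CPM. The chaperones Hsp90b1 (1613 ± 160.2 CPM) and Hspa5 (1609 ± 132 CPM) of the endoplasmic reticulum led the stress list, of which 19 of 20 members reached 1 CPM.

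Most genes were steady across replicates. For the 8845 genes with a mean of at least 10 CPM, the SD of log2(CPM + 0.5) pooled within the groups had a median of 0.102. It was under 0.1 for 4296 genes (48.6%), over 0.5 for 227 (2.57%) and over 1 for 32 (0.362%). Among the steadiest genes above 100 CPM were Hp1bp3, a chromatin protein (160.2, 158 and 162 CPM untreated, 161, 162 and 161 CPM treated), and the RNA-binding genes Pcbp1, Tardbp and G3bp1. Libraries of a group differed by more than counting error, with chi-square over its degrees of freedom at 136 for the untreated and 159 for the treated. This value is pooled over a group's libraries. It cannot show whether any pair is near-identical or whether libraries stem from different animals or culture wells. Each library was taken as 1 sample.

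The largest spread was that of Slc15a2, a peptide carrier, at 55.8, 55.0 and 4.04 CPM untreated and at 3.01, 46.7 and 43.0 CPM treated. Untreated 3 and treated 1 were low together, and the other 4 libraries were high. Ptgs2, which makes prostaglandins, followed the opposite course, at 39.8, 17.4 and 172 CPM untreated and at 132, 19.5 and 6.59 CPM treated. Cldn1, a tight junction protein, was at 20.0, 7.29 and 74.6 CPM untreated and at 45.8, 6.76 and 1.62 CPM treated, and Akap12, Crct1, Dusp1, S100a14, Dmkn, Asprv1 and Gadd45b were likewise highest in untreated 3 and lowest in treated 3. Upk1a, a urothelial membrane protein, ran the other way, at 3.28, 30.6 and 2.83 CPM untreated and at 29.8, 10.8 and 94.8 CPM treated.

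Untreated 3 and treated 3 were the ends of the main axis of variation. The first principal component of the 8845 genes carried 61.5% of the variance, with untreated 3 at 19.2 and treated 3 at -21.7, and the other 4 libraries between -7.91 and 8.08. These 2 libraries were also the least alike pair, with a Pearson correlation across genes of 0.957, beside up to 0.992 for other pairs. Of the 8845 genes, 985 (11.1%) were highest in untreated 3 and lowest in treated 3, and 1182 (13.4%) the reverse. Prap1 and Pax8 were highest in untreated 3 and lowest in treated 3, whereas C3 and Gpx3 were the reverse. The depth of these 2 libraries, 92350584 and 94976719 counted reads, lay inside the range of the 6. Their summed stress genes, 4397 and 4487 CPM, did so too. Ribosomal protein genes took 5.61% of the reads in untreated 3 and 6.13% in treated 3, the latter the highest share of the 6, and the part of these values in the axis was not tested.

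**Figure D5:**
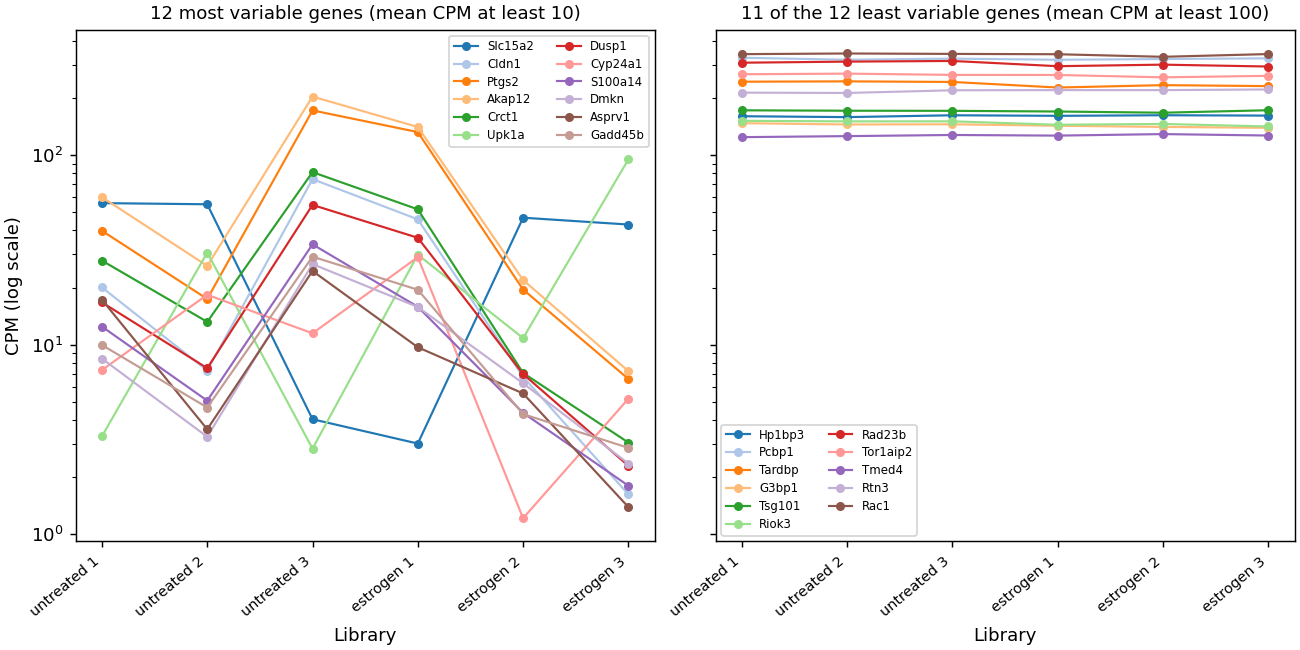
Level of the 12 genes with the largest spread (left) and 11 of the 12 with the smallest (right) between replicates, in each wild-type library (CPM, log axis), where lines only join the points of a gene. The variable genes span 10.2-fold or more, and 9 of the 12 on the left peak in untreated 3 and are lowest in treated 3, while the genes on the right are nearly level.

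Other genes tracked each marker over the 6 libraries. By Pearson correlation of log2(CPM + 0.5) among genes with a mean of at least 10 CPM, the nearest to Pax8 were Gprc5a, Cldn1 and Mid2, those to Esr1 were Tor1aip1, Atf2 and Ssx2ip, and those to Gpx3 were Srebf1, Apmap and Os9. The nearest to C3 were P2rx7, Cpped1 and Atad3a, and those to Aqp8 were Ddx51, Mef2d and Eipr1. All 15 coefficients lay between 0.985 and 0.999. They describe 6 libraries that also share the axis above, and each is the best of 8845 candidates.

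Many known estrogen-responsive genes were abundant in both groups. Of 42 on the list, 33 (78.6%) reached 1 CPM in all 6 libraries, 26 (61.9%) reached 10 CPM and 15 (35.7%) reached 100 CPM. Over all listed genes of the table these shares were 43.8%, 32.2% and 6.96%. A further 9 of the 42 were under 1 CPM in all 6 libraries. This list too was drawn up with earlier results of these data known. Padi2, a peptidylarginine deiminase, was at 1480.2, 1830.4 and 1277 CPM untreated and at 1521, 1740.2 and 2114 CPM treated, and its paralogs Padi1 (953 ± 185 CPM) and Padi4 (706 ± 76.1 CPM) and the gap junction gene Gjb2 (988 ± 99.1 CPM) were also high. Greb1, a cofactor of the receptor, was at 145, 200.4 and 98.6 CPM untreated and at 147, 177 and 246 CPM treated, with overlapping groups. Sprr2a1 and Tff3 had no read. Reads with several places were skipped in counting, so for Sprr2a1, which belongs to a family of similar genes, this does not show absence.

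The test across genes took the 6 libraries as unpaired, since the labels pair none. With edgeR's quasi-likelihood test and Benjamini-Hochberg adjustment, 0 of 14478 genes (0%) passed an adjusted p of 0.05, and the smallest adjusted p was 0.898. At an unadjusted p under 0.05 there were 590 genes (4.08%), and DESeq2 called 13 genes, 12 higher and 1 lower. Without treated 1, edgeR called 2 genes, Themis3 and Cdkn2a. Of the 35 estrogen-responsive genes tested, edgeR called 0, with 3 at an unadjusted p under 0.05 and a median log2 fold change of 0.07, beside 0.00 over all genes. After removal of the group means, each untreated library resembled a treated library of another number, by correlations across 8845 genes of 0.78 (untreated 1 and treated 2), 0.80 (untreated 2 and treated 3) and 0.65 (untreated 3 and treated 1). The labels state no such pairing, and no fit was made with it. These p-values measure only the spread between these libraries, which may be technical.

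Of the 10 genes with the smallest p, 5 in each direction, 8 were under 10 CPM on average. Penk, the enkephalin precursor, was at 0.403, 0.884 and 1.30 CPM untreated and at 3.22, 9.19 and 14.1 CPM treated, and these groups did not overlap (log2 fold change 3.35, SE 0.652, edgeR adjusted p 0.898). Anpep, a membrane aminopeptidase, was at 0.213, 0.499 and 0.845 CPM untreated and at 2.25, 2.78 and 6.68 CPM treated, without overlap, and it passed in DESeq2 (adjusted p 0.00048) but not in edgeR (0.898). Nedd9, a scaffold protein of cell adhesion, was at 412, 387 and 371 CPM untreated and at 306, 302 and 267 CPM treated, also without overlap (log2 fold change -0.42, SE 0.083). These genes were picked for their small p, so the lack of overlap was largely set by that choice. The share of all genes without overlap was not counted. Tspan12, Tnfrsf9 and Bex1 completed the 5 with the smallest p and a positive fold change, and Slit1, Arhgef10l, Abca1 and Slc47a1 those with a negative one.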

How the data were processed

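Polyadenylated RNA of passage 3 organoids was sequenced as read pairs. Per the file headers, the authors deposited raw read counts per gene from featureCounts 2.0.0, whereas the submitters' processing notes name 2.0.3, the build GRCm39, the aligner STAR 2.7.10b, and for quality control and trimming FastQC 0.11.7 and Trim Galore 0.6.6. The header's command counted each mate, ignored strand and skipped reads with several places or genes, so near-identical paralogs and the 45 of 294 named genes whose exons overlap another counted gene (Prap1 with Fuom, Pax8 with Gm13415, Ctsb with Fdft1) are uncertain. CPM used library totals. TPM used union exon lengths of GENCODE M21 (GRCm38), chosen after the data were seen. The 40 lists (691 of 693 genes found) and the members were chosen with earlier results of these data known. Most genes were named by rule. It took the markers, the 30 highest, up to 6 per list and any marker of another lineage at 10 CPM or more. It also took 15 factors, the 12 most and 12 least variable and the 3 most like each marker. For estrogen it took the 5 smallest p in each direction. Lower members are named to show what was low or absent. Other list members, among them Clu, Pigr, Klk1, Wnt5a, Padi1, Padi4, Gjb2 and Greb1, were named outside the rule. Genes named outside the rule, and those named by p for estrogen, are not among the 294 checked for exon overlap and scaling. Estrogen was tested in the 6 libraries with edgeR 4.0.16 under R 4.3.3 (filterByExpr with minimum count 10 and total 15, TMM, robust), two-sided, and with DESeq2 1.42.0. The script was tested on simulated data. Alternatives were another scaling or filter, the 12 libraries in 1 fit, a replicate block and leaving out each library. Some genes of the lists are not reported here.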

Additional observations from a re-analysis of the deposited data

How the results depend on the processing

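Mean levels of the 294 named genes over the 6 libraries moved by at most 1.05% under TMM scaling. They stayed within the SD of the 6 libraries. TMM factors multiply to 1 over the libraries, so shifts of single libraries largely cancel in such a mean. Levels in single libraries were not recomputed under TMM. The 2352 values recomputed also came from leaving out each library and from leaving out mitochondrially encoded genes. Those settings could not take a level past that SD. Leaving out 1 of 6 libraries always shifts a mean by less than the SD, and the table lists no mitochondrially encoded gene. Ranking per exon length in place of CPM, an alternative chosen after seeing the data, raised the share of the first 10 genes to 15.8%, of the first 50 to 27.4% (17.5% in CPM) and of the first 100 to 35.9%. Of 360 recomputed list counts 17 moved by over 1.5 times, 14 of them under a threshold of 10 CPM, which left 251 of 691 list genes in place of 349; the other 3 are given with the thyroid, mammary and stromal lists. The count of 0 genes for estrogen stayed at 0 in edgeR with library size alone, without a filter, with a filter at 1 CPM and in 1 fit of all 12 libraries, and became 13 with DESeq2, among them Nedd9, Penk, Tspan12, Anpep and Bex1; the cause was not tested. Leaving out 1 library gave 0 to 2 genes, the 2 without treated 1. With the replicate number as a block the count was 0, with 292 genes at an unadjusted p under 0.05. Same-numbered libraries did not deviate together (correlations of -0.33, -0.38 and -0.69), while some libraries of other numbers did (0.65, 0.78 and 0.80). Deviations within a group add up to 0, so these correlations are not independent of each other. They cannot decide whether libraries were paired, and the labels do not say. A pairing read from the data alone was not fitted. Coding lengths were not run. Depth limits only genes near a floor that lies above 0.00525 CPM, since each mate of a read pair was counted. Intervals of counting error do not cover the spread between libraries.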
